A study of Mus musculus with 8 samples.

Results

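HNF4G Hi-ChIP loops were compared between a cell line from a liver metastasis (liver mets) and a cell line from the primary tumor, both derived from KPC mice with pancreatic cancer. Members were the loops of the HNF4G list of each line, matched by identical pairs of anchors on the mm10 assembly. The liver mets list held 78098 loops and the tumor list 76323, and together they made up 128752 distinct loops out of 249200 in the whole series, which also had a FOXA1 list from each line. The question was whether HNF4G looping was wired differently in the metastatic and in the primary tumor context.

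KPC mice carry mutant alleles, among them mutant Trp53, that a Cre recombinase switches on in the pancreas, and the pair of lines was described as isogenic. Both lines were labelled as wild type in genotype and as untreated, were grown in DMEM with 10% FBS, and were treated with the same antibody against HNF4G (HPA005438), with ab5089 for FOXA1. Each group had 2 replicates of 1 cell line, and their loops were deposited as 1 joint list. A difference between the lists can therefore not be told apart from a difference between these cell lines or these libraries, and no test over replicates was possible. All intervals below are 95% intervals of counting error alone, and they ignore that loops at the same anchor are not independent of each other.

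HNF4G is a nuclear receptor of the HNF4 family, which binds direct repeats upstream of genes of gut, liver and pancreatic epithelium. Hi-ChIP ligates DNA ends that lie close together in the nucleus and then pulls down the ligated fragments with an antibody, so a loop in a list is a contact between a pair of anchors where the factor, or chromatin crosslinked to it, was caught. Promoters differ in their content of the CpG dinucleotide. Housekeeping genes and developmental regulators tend to have CpG-dense promoters, and those of silent developmental and neuronal genes are typical targets of the Polycomb complexes, whereas promoters of tissue-specific genes are often CpG-poor.

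Promoter and anchor sequences of both kinds are shown here because most of the anchors with the largest differences toward tumor were CpG-dense. The capitals mark each CpG. The Cbx8 promoter (chr11:119040864-119041163, minus strand) and the Neurod2 promoter (chr11:98329596-98329895, minus strand) belong to genes whose promoter anchors had more loops in tumor. The Neurod2 stretch starts just outside its anchor, which was assigned to the gene because it lay within 2 kb of the start. The Muc1 promoter (chr3:89228806-89229105, plus strand) and the Cldn18 promoter (chr9:99717218-99717517, minus strand) belong to genes with more loops in liver mets. For Muc1 the interval of the ratio of loop shares included 1 (0.818 to 2.34). The promoter anchors that led toward liver mets were denser than the Muc1 anchor (2.30 CpG per 100 bases). They were those of Tm7sf2 with Vps51 (3.02) and of Rxrb with Slc39a7 (7.21). The busiest Cldn18 promoter anchor (chr9:99709311-99711778), with 9 liver mets loops and 5 tumor loops, did not include the stretch shown. The promoters shown are RefSeq promoters on the mm10 assembly, from 250 bases before to 50 after the start. For the leading distal anchor in each direction, the 300 bases with the most CpG are given from the plus strand of mm10, at chr11:119056571-119056870 beside Cbx8 for tumor and at chr15:59784093-59784392 near Trib1 for liver mets.
Cbx8 promoter: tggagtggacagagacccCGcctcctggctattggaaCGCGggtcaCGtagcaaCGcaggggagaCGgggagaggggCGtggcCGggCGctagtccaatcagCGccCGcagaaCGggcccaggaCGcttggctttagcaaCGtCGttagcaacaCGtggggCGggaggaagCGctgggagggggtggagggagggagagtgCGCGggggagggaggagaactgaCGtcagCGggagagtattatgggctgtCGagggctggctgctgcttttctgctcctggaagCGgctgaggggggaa
Neurod2 promoter: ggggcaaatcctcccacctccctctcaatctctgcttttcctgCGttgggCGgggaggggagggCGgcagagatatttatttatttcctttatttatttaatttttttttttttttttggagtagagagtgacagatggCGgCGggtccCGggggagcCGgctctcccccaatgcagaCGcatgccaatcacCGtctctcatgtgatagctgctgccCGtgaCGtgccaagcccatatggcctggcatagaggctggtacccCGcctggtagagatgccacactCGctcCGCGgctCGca
Muc1 promoter: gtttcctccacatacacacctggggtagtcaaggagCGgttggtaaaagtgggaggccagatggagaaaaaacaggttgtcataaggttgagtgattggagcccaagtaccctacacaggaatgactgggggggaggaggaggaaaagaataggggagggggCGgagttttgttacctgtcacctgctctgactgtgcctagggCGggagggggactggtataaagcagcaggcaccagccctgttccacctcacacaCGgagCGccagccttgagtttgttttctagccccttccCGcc
Cldn18 promoter: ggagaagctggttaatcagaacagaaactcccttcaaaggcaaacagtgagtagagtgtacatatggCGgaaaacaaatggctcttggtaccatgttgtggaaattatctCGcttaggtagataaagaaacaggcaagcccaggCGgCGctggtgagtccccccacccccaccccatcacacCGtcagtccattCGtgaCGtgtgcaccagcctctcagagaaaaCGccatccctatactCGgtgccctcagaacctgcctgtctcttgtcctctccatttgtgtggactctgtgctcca
distal anchor near Cbx8: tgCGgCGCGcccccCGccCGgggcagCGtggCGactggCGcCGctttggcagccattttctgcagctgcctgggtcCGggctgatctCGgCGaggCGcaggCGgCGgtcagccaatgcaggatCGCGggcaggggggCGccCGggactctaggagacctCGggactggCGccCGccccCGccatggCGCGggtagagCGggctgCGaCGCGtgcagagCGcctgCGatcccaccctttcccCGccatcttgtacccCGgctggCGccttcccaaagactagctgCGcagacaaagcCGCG
distal anchor near Trib1: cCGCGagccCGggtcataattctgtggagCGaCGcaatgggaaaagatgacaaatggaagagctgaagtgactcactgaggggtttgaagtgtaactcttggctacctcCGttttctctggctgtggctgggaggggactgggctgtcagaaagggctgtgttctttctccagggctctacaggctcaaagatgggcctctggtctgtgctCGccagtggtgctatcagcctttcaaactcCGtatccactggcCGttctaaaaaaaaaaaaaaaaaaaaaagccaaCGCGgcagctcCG

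The Cbx8 promoter held 24 CpG in its 300 bases, a number reached by 19.98% of the 32851 promoters in the table. The Neurod2 promoter held 16, which 33% of promoters reached. The Cldn18 promoter held 9 and the Muc1 promoter 6, on either side of the median of 7 over all promoters. Among the distal anchors, the densest stretch beside Cbx8 held 37 CpG, and the densest stretch near Trib1 held 12.

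Across the genome, most anchors were used in both lists, whereas most loops with the same pair of anchors were found in a single list. Of 29407 anchors in the HNF4G lists, 25562 were used in both lines, 2168 only in liver mets and 1677 only in tumor. The anchors found in a single line were minor ones, with at most 9 loops in liver mets (distal, nearest to Cdc42ep3) and at most 7 in tumor, reached by 7 anchors (among them the promoter of Hyou1, a chaperone of the endoplasmic reticulum). Of them, 48.2% and 54.0% had only 1 loop. By contrast, only 25669 loops were in both lists, 32.9% of the liver mets list and 33.6% of the tumor list. The share depends on how closely anchors must match. Between 20 and 200 kb, 39.0% of liver mets loops and 41.8% of tumor loops were in both lists, and 68.9% and 71.2% were if 5 kb was added to both ends of every anchor. The median anchor had 4 loops in either line, whereas the busiest in tumor had 69 (Cbx8). In liver mets 2 neighboring promoter anchors were the busiest with 49 each, that of Ltbp3, which encodes a latent TGF-beta binding protein, and that of Ehbp1l1, Fam89b and Sssca1.

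The cells were labelled as mouse pancreatic cancer cells, and loops at marker promoters were counted as a check. These are contacts and not expression. Of 15 epithelial markers, 11 had at least 20 loops in both lists summed, led by the simple epithelial keratin gene Krt18 with 35 liver mets loops and 36 tumor loops. Krt8 had 20 and 23 loops, and Krt19 had 27 and 30. The epithelial markers Cldn4, Cldn7 and St14 had 0 loops in either list. Over all protein-coding genes, 2631 reached 20 loops. No hepatocyte marker reached 20 loops, and the 14 hepatocyte genes together had 8 liver mets loops and 9 tumor loops. The 11 fibroblast and stellate cell genes had 14 and 28 loops and the 11 leukocyte genes 7 and 10. Of 8 endothelial markers, Vwf alone reached 20 loops, with 11 in liver mets and 12 in tumor. Sequencing depth was not analysed here and is unknown, so the share of each list, and not the number of loops, was compared.

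Anchors were compared by their share ratio, the share of liver mets loops at an anchor divided by the share of tumor loops there. The 1410 anchors with at least 30 loops in both lists summed were compared. A share ratio of 0.5 or less, that is more loops in tumor, was found at 38 anchors, 2.7% of those compared. A ratio of 2 or more was found at 1 anchor, or 0.0709%. By the second rule, that the counting interval leaves out 1, 36 anchors (2.55%) had the larger share in tumor and 0 (0.0%) in liver mets. A share of 2.55% is of the size that 95% intervals allow on 1 side by counting error alone. Whether more anchors lay there than counting error gives was not tested. The median share ratio over all 1410 anchors was 0.916. It was 0.880 at promoter anchors of protein-coding genes and 0.977 at anchors without a promoter. In the plot of loops per anchor, more points lay beyond the fold toward tumor than toward liver mets, around a median that itself leaned toward tumor.

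**Figure D1:**
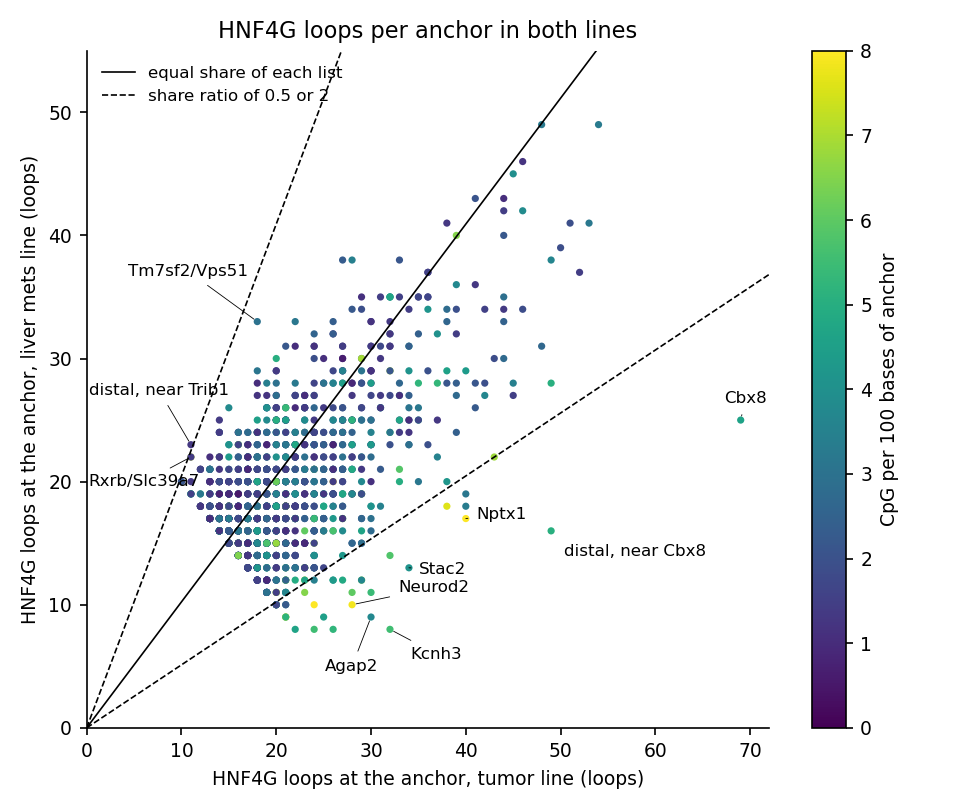
HNF4G loops at each of 1410 anchors in the tumor line (x axis, loops) and the liver mets line (y axis, loops), colored by CpG per 100 bases of anchor; the solid line marks an equal share of each list and the dashed lines a share ratio of 0.5 or 2. The 38 points below the lower dashed line are mostly CpG-dense, with Cbx8 at 69 tumor and 25 liver mets loops, and 1 point lies above the upper one.

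Promoter anchors were ranked for tumor by the upper bound of their interval. The direction and the intervals of the first 10 therefore follow from that choice. These 10 anchors had share ratios between 0.244 and 0.415. Kcnh3, a voltage-gated potassium channel gene of the brain, had 8 liver mets loops and 32 tumor loops at its promoter anchor (chr15:99223051-99226477), a share ratio of 0.244 (0.0973 to 0.541). Cbx8, which encodes a chromobox subunit of the Polycomb repressive complex, had 25 and 69 (chr11:119037193-119043809), a ratio of 0.354 (0.215 to 0.567). Both genes had a smaller share in liver mets, and Cbx8 held the most tumor loops of any anchor.

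Agap2, an Arf GTPase-activating protein gene of neurons, had 9 liver mets loops and 30 tumor loops, a ratio of 0.293 (0.122 to 0.633). Neurod2, a neuronal basic helix-loop-helix transcription factor gene, had 10 and 28 (ratio 0.349, 0.151 to 0.740). Nptx1, encoding a secreted neuronal pentraxin, had 17 and 40 (ratio 0.415, 0.221 to 0.749). The intervals of these 3 genes lay below 1.

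The remaining members of this group were chosen by the same rule. Vwa5b2 had 8 liver mets loops and 26 tumor loops. Stac2, an adaptor of voltage-gated calcium channels, had 13 and 34. Syt2, a calcium sensor of synaptic vesicles, had 9 and 25. Kcnj4, an inwardly rectifying potassium channel gene, had 11 and 28, and Srcin1, a synaptic scaffold gene, had 12 and 29. Their share ratios lay between 0.301 for Vwa5b2 and 0.404 for Srcin1. The intervals of all 10 genes lay below 1, which follows from the ranking.

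Of the 5 leading distal anchors, 3 lay next to Cbx8. The anchor 14.9 kb from the nearest Cbx8 start (chr11:119055858-119058141, intergenic) had 16 liver mets loops and 49 tumor loops, a share ratio of 0.319 (0.169 to 0.571). Another pair of anchors close to Cbx8 had 18 and 40 loops (chr11:119050944-119054445, intergenic) and 12 and 29 loops (chr11:119033722-119036408, within the annotated span of Cbx8). An anchor inside the Efna2 gene, which encodes an ephrin ligand, had 11 and 30 (chr10:80189666-80191637). An anchor inside Sp6, a zinc finger transcription factor gene, had 8 and 24 (chr11:97021349-97023268). In each of these 5 the interval lay below 1, which again follows from ranking by that bound. Of the 38 anchors with a ratio of 0.5 or less, 14 (36.8%) were on chromosome 11, which held 20.9% of all anchors compared.

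In the opposite direction the differences were smaller. None of the intervals of the 10 leading promoter anchors left out 1 by the loop shares themselves. The anchor shared by Tm7sf2, a sterol reductase gene of cholesterol synthesis, and Vps51, a vesicle tethering gene, had 33 liver mets loops and 18 tumor loops (chr19:6065833-6068551), a ratio of 1.79 (0.980 to 3.38). The anchor of Rxrb, a retinoid X receptor gene, and Slc39a7, a zinc transporter gene, had 22 and 11 (chr17:34030712-34033152), a ratio of 1.95 (0.908 to 4.46). With tumor loops weighted by span and CpG class the intervals of both these anchors left out 1, with ratios of 1.85 (1.01 to 3.49) for Tm7sf2 and 2.22 (1.03 to 5.08) for Rxrb, and those of the other 8 did not.

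Coasy and Mlx, for coenzyme A synthesis and for a partner of glucose-responsive transcription factors, shared an anchor with 24 liver mets loops and 14 tumor loops. Ndufaf8 and Tepsin had 29 and 18, and Doc2g and Ndufv1 had 27 and 18. Ndufaf8 and Ndufv1 serve the first complex of the respiratory chain. The anchor of Mtx1, Muc1 and Thbs3, which holds the Muc1 promoter shown above, had 38 and 27 (chr3:89225642-89235196), a ratio of 1.38 (0.818 to 2.34). Tle3, Arl2 with Batf2, Pola2, and Map3k11 with Pcnx3 completed the 10, with ratios between 1.33 and 1.47. Their loop numbers were 33 and 22, 30 and 20, 31 and 21, and 38 and 28.

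The only anchor with a share ratio of 2 or more was distal. It lay 134 kb from the nearest protein-coding start, that of Trib1, a pseudokinase gene (chr15:59782371-59788092, intergenic), with 23 liver mets loops and 11 tumor loops, a ratio of 2.04 (0.957 to 4.64). The other distal anchors that led for liver mets lay within the annotated span of Ccnd1, the gene of cyclin D1, and of LTO1 (22 and 11 loops), 114 kb from Parp11 (20 and 10), 5.56 kb from Cdc42ep1 (24 and 14) and inside Krt7, a ductal keratin gene (24 and 14). In all 5 the interval included 1.

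Matching on span changed these lists little. Since the ratio of the lists varied with the span of the loops (below), every tumor loop was weighted by the ratio of the lists in its span range. With this matching 33 anchors (2.34%) had a ratio of 0.5 or less and 0 (0.0%) a ratio of 2 or more. Kcnh3 moved from 0.244 to 0.259, Cbx8 from 0.354 to 0.376 and Nptx1 from 0.415 to 0.438. The anchor near Trib1 moved from 2.04 to 1.99.

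Most anchors with fewer loops in liver mets were CpG-dense. The 38 anchors with a ratio of 0.5 or less had a median of 4.74 CpG per 100 bases, against 2.11 for all 1410 anchors, and 30 of the 38 (78.9%) were in the densest 20% of all anchors, against 27.9%. The sparsest of the 38 held 1.305 CpG per 100 bases. Their median GC content was 58.7%, against 53.2%. They were narrower, with a median width of 2.72 kb against 4.42 kb. The 38 anchors with a ratio of 1.5 or more had a median of 1.60 CpG per 100 bases and a median GC content of 51.8%. Of these, 8 (21.1%) were in the densest 20%, not far from the 27.9% of all anchors compared. The anchor of Rxrb and Slc39a7 held 7.21 CpG per 100 bases.

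All anchors were divided into 10 classes by CpG density and the ends of loops in each class were counted. Anchors without a promoter showed the largest difference in the densest class, at or above 4.72 CpG per 100 bases. They had 347 loop ends in liver mets and 519 in tumor there, a share ratio of 0.653 (0.569 to 0.750). In the class below the ratio was 0.821 (0.733 to 0.920), and in the sparsest class it was 1.14 (1.096 to 1.18). Promoter anchors showed a smaller gradient, from 1.12 (1.03 to 1.21) in the sparsest to 0.870 (0.851 to 0.889) in the densest class. Without the 1410 busiest anchors, the densest class had a ratio of 0.727 (0.609 to 0.868) at anchors without a promoter, with 224 and 301 loop ends, and of 0.888 (0.867 to 0.910) at promoter anchors.

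The FOXA1 lists showed a shallower gradient in the same direction, from 1.07 (1.05 to 1.099) to 0.949 (0.931 to 0.968). GC content moved with the same pattern. In 10 classes by GC content the HNF4G ratio ran from 1.19 (1.15 to 1.23) in the lowest to 0.849 (0.834 to 0.865) in the highest class. Among anchors in the lowest 20% by GC the ratio lay between 1.12 and 1.16 over the 5 CpG classes. The densest of these classes held only 8 and 7 loop ends (0.354 to 3.62). Among anchors in the highest 20% by GC the ratio was 0.926 (0.7935 to 1.08) in the sparsest CpG class. It was then 0.985, 0.978 and 0.913, and 0.865 (0.850 to 0.880) in the densest. Weighting the tumor loops by span and by the CpG class of both anchors left 24 anchors at 0.5 or less, and weighting by span and GC class left 19, against 33 with span alone. The part of base composition of the libraries in the result was not tested.

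**Figure D2:**
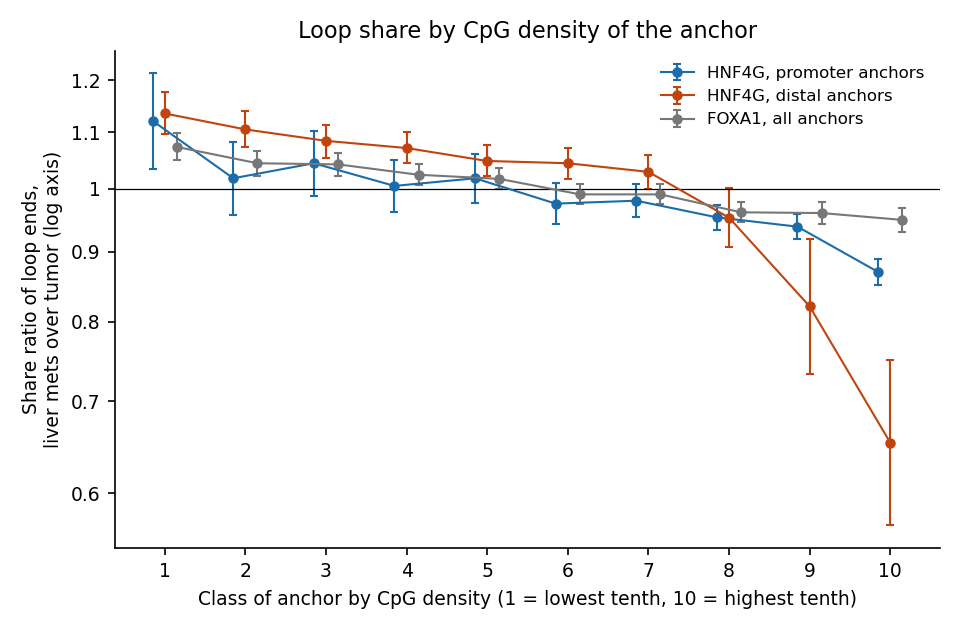
Share ratio of loop ends (liver mets over tumor, log axis) in 10 classes of anchors by CpG density, for HNF4G at promoter anchors, HNF4G at distal anchors and FOXA1 at all anchors; bars are 95% counting intervals. HNF4G distal anchors run from 1.14 in class 1 to 0.653 in class 10, while FOXA1 runs from 1.07 to 0.949.

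The lists also differed in span, and more so for loops with CpG-rich anchors. The number of liver mets loops divided by that of tumor loops was 1.13 (1.09 to 1.17) at 10 to 20 kb, 1.03 (1.01 to 1.06) at 100 to 200 kb and 0.898 (0.870 to 0.926) at 500 to 1000 kb. Among loops with a score of 2 or more the ratio was 1.08 (0.906 to 1.28) at 5 to 10 kb. The direction turned at 10 to 20 kb, with 0.903 (0.750 to 1.09), an interval that included 1. It stayed at 500 to 1000 kb, with 0.808 (0.695 to 0.937). Loops were then divided by how many of their anchors were CpG-rich, meaning in the densest 20%, with at least 3.35 CpG per 100 bases, of which 97.3% were promoter anchors. Loops with 2 CpG-rich anchors numbered 737 in liver mets and 736 in tumor at 50 to 100 kb, a ratio of 1.00 (0.903 to 1.11). At 100 to 200 kb they numbered 738 and 924, a ratio of 0.799 (0.724 to 0.881). At 1000 to 2000 kb they numbered 344 and 468, a ratio of 0.735 (0.638 to 0.847).

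Loops without a CpG-rich anchor stayed at or above the ratio of the lists up to 200 kb, with 1.16 (1.12 to 1.19) at 20 to 50 kb, and were at 0.959 (0.920 to 0.999) at 500 to 1000 kb and 1.01 (0.966 to 1.07) at 1000 to 2000 kb. Within span ranges, the odds that a liver mets loop joined a pair of CpG-rich anchors were 0.848 times those of a tumor loop (0.813 to 0.885), and the odds that it joined none were 1.16 times (1.13 to 1.18). For FOXA1 the same odds ratios were 0.902 (0.867 to 0.938) and 1.07 (1.06 to 1.09). By promoters, the odds ratio was 0.891 (0.872 to 0.911) for promoter-promoter loops, 1.00 (0.980 to 1.02) for promoter-distal loops and 1.14 (1.11 to 1.17) for distal-distal loops.

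**Figure D3:**
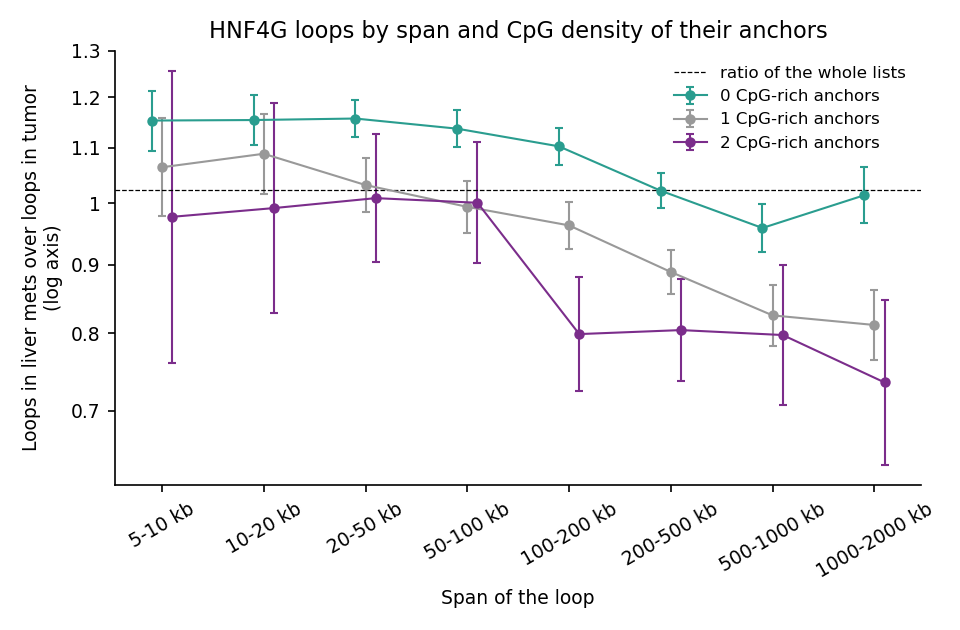
HNF4G loops in liver mets divided by those in tumor (log axis) in 8 ranges of loop span, for loops with 0, 1 or 2 CpG-rich anchors; bars are 95% counting intervals and the dashed line is the ratio of the whole lists. Loops with 2 CpG-rich anchors lie at 1.00 at 50 to 100 kb and between 0.735 and 0.804 from 100 kb upward.

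At the level of genes, all distinct loops at the promoters of a gene were counted, with anchors within 2 kb of any annotated start. Of 2631 protein-coding genes with at least 20 loops in both lists summed, 178 (6.77%) had a share ratio of 1.5 or more and 390 (14.8%) had a ratio at or below its inverse. The median over all genes was 0.921. Genes named in this paragraph and the next were ranked by the bound of their interval nearest to 1 and were chosen after their values were seen. Wnt11, a Wnt ligand gene of development, led for tumor with 4 liver mets loops and 22 tumor loops, a ratio of 0.178 (0.0445 to 0.523). Gata2, a GATA factor gene of blood and placenta, had 3 and 19 (ratio 0.154, 0.0292 to 0.524). Kcnh3 came next with the values given above. Tbx1, a T-box factor gene of the pharyngeal arches, and Dnajc22, of the DnaJ family of co-chaperones, each had 4 and 21. Wnt6 and Gjc1, a connexin gene, each had 3 and 18. The busiest promoter anchor of each of these genes held between 4.25 CpG per 100 bases (Tbx1) and 9.06 (Gjc1).

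The leading genes for liver mets had fewer CpG with 1 exception. Haghl and Ccdc78, which share their anchors, had 16 liver mets loops and 4 tumor loops, a ratio of 3.91 (1.26 to 16.1). Dcdc2b, a doublecortin domain gene, likewise had 16 and 4. Park7, which encodes a protein of the oxidative stress response, had 17 and 5, and Tgfbrap1, a binding partner of TGF-beta receptors, had 18 and 6. Tceanc2 and Tmem59 each had 16 and 5, and Mrps18a, a mitochondrial ribosomal protein gene, had 17 and 6. Cldn18, the claudin of gastric tight junctions, had 15 and 5, a ratio of 2.93 (1.01 to 10.3). Their busiest promoter anchors held between 1.35 CpG per 100 bases (Dcdc2b) and 3.43 (Park7). The exception was Epb41l2, a gene of the membrane skeleton, with 19 and 7 loops and 6.33 CpG per 100 bases.

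Gene lists are described by their members with at least 20 loops, to be read beside the 6.77% and 14.8% of all genes and their median of 0.921. Of the 13 members of the Polycomb list compared, 5 had a share ratio at or below the inverse of 1.5 and 0 a ratio of 1.5 or more, with a median of 0.747. Cbx8 was followed by its neighbor Cbx2 with 16 liver mets loops and 30 tumor loops (ratio 0.521, 0.265 to 0.987). The genes Cbx2 and Cbx8 lie side by side and are joined to each other by loops, so they are not independent of each other. Members elsewhere in the genome went both ways, with 28 and 19 for Cbx6 (ratio 1.44, 0.776 to 2.73), 28 and 21 for Pcgf2 (ratio 1.303) and 12 and 20 for Bmi1 (ratio 0.586, 0.261 to 1.26).

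Of the 11 epithelial markers compared, 4 had the larger share in tumor by that fold, 0 in liver mets, and the median was 0.794. Grhl2, a master regulator of epithelial junction genes, had 14 liver mets loops and 30 tumor loops (ratio 0.456, 0.224 to 0.887), and was the only member whose interval left out 1. Spint1, a membrane protease inhibitor gene, had 9 and 16. Of 10 genes of cell adhesion and junctions, 4 had the larger share in tumor and 0 in liver mets, with a median of 0.791. Cdh1 and Epcam are members of both lists and were among the 4 in each. Among these Cldn3 had 9 and 17 loops and Itgb4 18 and 28, while Jup had 41 and 37.

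Lineage and subtype genes were near the median of all genes. Of 16 endodermal and pancreatic lineage factors, 1 had the larger share in liver mets and 2 in tumor, with a median of 0.914. Klf6 had 13 liver mets loops and 8 tumor loops, and Cdx2 had 8 and 14. The genes of the factors themselves had few loops, with 0 and 1 for Hnf4g, 12 and 11 for Hnf4a, 5 and 6 for Foxa1 and 9 and 7 for Gata6. Of 8 genes of the classical subtype and gastrointestinal epithelium, Cldn18 had the larger share in liver mets and Epcam, with 10 and 15, in tumor, with a median of 0.847 over the list.

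Of 6 squamous and basal genes, 0 had the larger share in liver mets and 1, S100a2 with 11 and 17 loops, in tumor, and the median was 0.889. Of 6 mesenchymal genes, Fn1, which encodes fibronectin, had 15 and 9, Twist2 had 8 and 17, and the median was 1.27. None of the 6 lipid and transport genes passed the fold in either direction, with a median of 0.953. Among 12 driver and cell cycle genes, Rnf43, an inhibitor of Wnt receptors, had 38 and 22 (ratio 1.69, 0.973 to 2.996) and Cdk4 had 8 and 13. Myc had 25 and 21. The plot of gene lists shows every compared member with its interval.

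**Figure D4:**
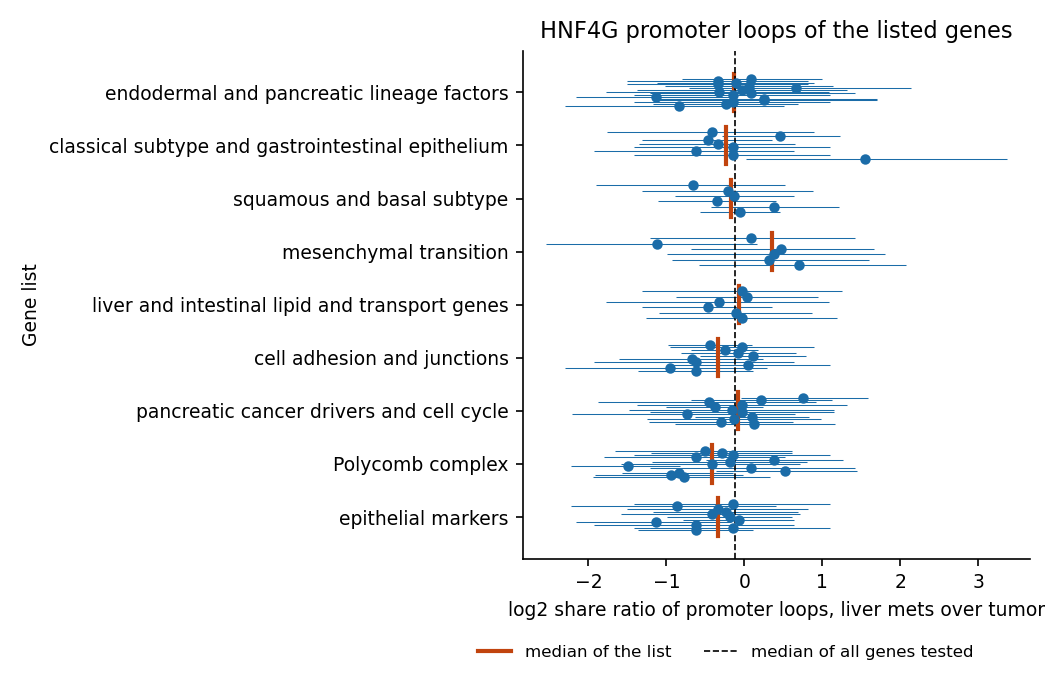
Log2 share ratio of promoter loops (liver mets over tumor) for the compared members of 9 gene lists, with 95% counting intervals, the median of each list and, as a dashed line, the median of all 2631 genes. The medians of 6 lists lie below the dashed line, the lowest being that of the Polycomb genes at a ratio of 0.747, and that of the mesenchymal genes lies above it at 1.27, and Cldn18 is the rightmost point.

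Partner switching was examined at the 672 promoter anchors of protein-coding genes with at least 15 loops in each list. At the median anchor, 30.1% of all partners found in either line were found in both (quartiles 24.4% and 37.6%). Among partners between 20 and 200 kb away this was 43.8%. The share kept was smaller for longer loops. Over the 1410 anchors compared by loop share, 82.2% of tumor loops shorter than 50 kb and 9.82% of those between 500 and 2000 kb were also in liver mets.

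Cbx8 differed between the lines mainly in its far partners. Within 200 kb it had 14 partners in liver mets and 20 in tumor, and all 14 were also partners in tumor, among them the promoter of Cbx2. At 200 kb or more it had 11 partners in liver mets and 49 in tumor, of which 7 were in both. Of the 42 far partners found only in tumor, 28 were promoter anchors, such as those of Nptx1 at 507 kb, Socs3 at 1074 kb on the other side, and Fasn at 1777 kb. Most of the 42 loops had a score below 2, among them those to Nptx1 (1.987) and Fasn (1.99). The loop to Socs3 had a score of 4.077. Since Nptx1 was itself among the leading promoters, some of the loops that set these anchors apart were loops between them.

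At Kcnh3, 3 of 8 partners in liver mets were also among the 32 in tumor, and all 3 were within 200 kb. Of its 29 partners found only in tumor, 21 were promoter anchors, among them those of Tuba1c, Prph and Cacnb3. Their scores were 3.122, 2.942 and 1.99. Neurod2 kept the promoters of Ppp1r1b and, at 99.6 kb, an anchor of the receptor kinase gene Erbb2. It had 23 partners found only in tumor, among them those of Grb7 at 118 kb (score 1.324) and Rara at 606 kb (score 1.989). At the busiest promoter anchor of Grhl2 (chr15:37232085-37233379), partners at 200 kb or more numbered 0 in liver mets and 10 in tumor, while 4 of the 5 partners in liver mets, all within 200 kb, were also found in tumor.

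The same was true of the 38 tumor-leaning anchors as a group, given here as a description of anchors that were chosen by these loops. Their loops numbered 135 in liver mets and 177 in tumor below 50 kb, a ratio of 0.763, and 79 and 338 between 500 and 2000 kb, a ratio of 0.234. Over all 1410 anchors these ratios were 1.01 and 0.795. At Tm7sf2, whose loops were more numerous in liver mets, 23 partners were found only there, 14 of them at 200 kb or more, and 8 only in tumor. At Muc1, 20 partners were found only in liver mets and 18 in both lines. Those only in liver mets included the promoters of Nes at 1259 kb and Prcc at 1345 kb on the lower side, each with a score of 1.986.

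**Figure D5:**
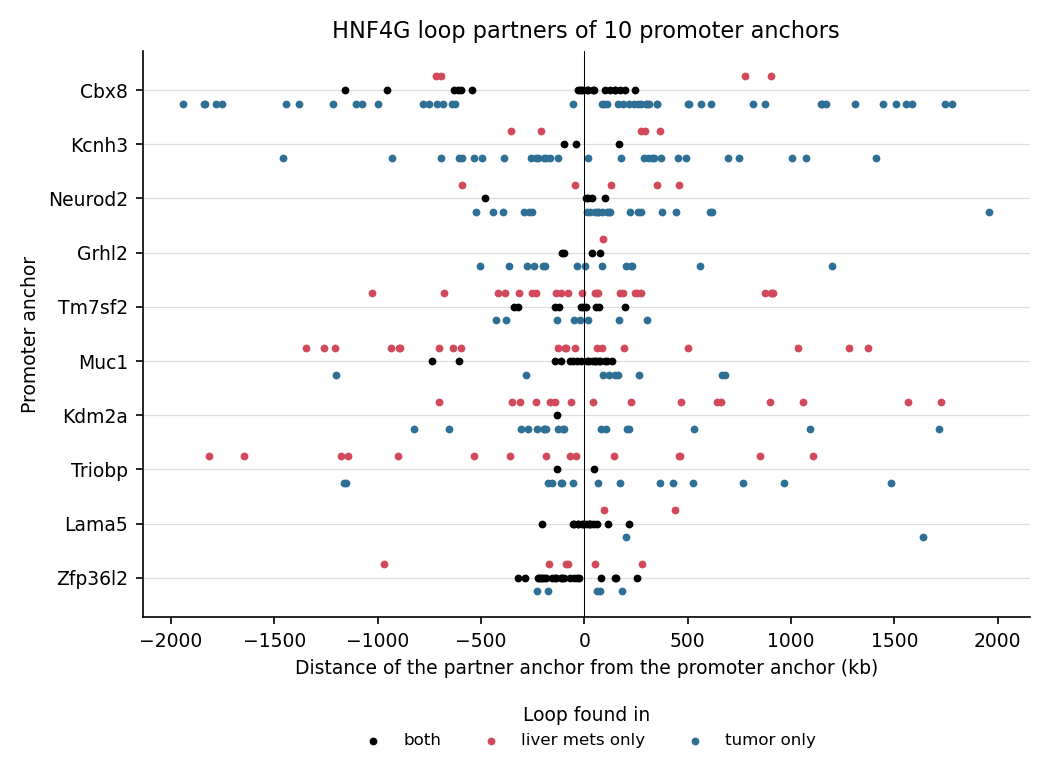
Distance (kb, x axis) of each HNF4G loop partner from 10 promoter anchors (y axis), with partners found in both lines in black, only in liver mets in red and only in tumor in blue. Partners found in both lie mostly close to the promoter, and the 42 far partners of Cbx8 found only in tumor spread over both sides.

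At the median anchor the share kept was 46.7% when partner anchors were widened by 5 kb, so that near neighbors counted as the same partner. Among anchors with a share ratio between 0.8 and its inverse, Kdm2a, encoding a histone demethylase that binds CpG islands, kept the fewest (chr19:4395412-4399698). It had 17 partners in liver mets and 19 in tumor, and only 1, the promoter of Ssh3 at 134 kb, was in both, or 2.86% of all its partners. Triobp, an actin-binding gene, kept 2 of 17 and 17 (6.25%). Rsrp1 kept 3 of 19 and 18 (8.82%) and none of its partners between 20 and 200 kb. Nrtn, Fads2, Peli3, Rbm34 and Fkbp10 with P3h4 kept between 10% and 12.1%. With widened partner anchors Kdm2a kept 24.1%, Triobp 25.9%, Rsrp1 19.4% and the other 5 between 17.9% and 30.4%, so that part of the exchange was between partners that lie close together.

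At the other end, Lama5, encoding a laminin chain of basement membranes, kept 15 of 17 and 17 partners (78.9%, chr2:180224946-180229677). Zfp36l2, encoding an RNA-binding protein, kept 22 of 28 and 27 (66.7%), and Zfp703 kept 13 of 19 and 16 (59.1%). Of the Lama5 partners found in both lines, 13 were within 200 kb. For comparison, Myc kept 15 of 25 and 21 partners, and the 6 Myc partners found only in tumor all lay at 200 kb or more. Krt19 kept 17 of 27 and 30.

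The side on which a promoter found its partners was compared at the same 672 anchors. At 11 of 672 anchors (1.64%) the interval of the difference in the share of partners at lower coordinates left out 0. That share is no larger than such intervals allow by counting error alone. Whether any promoter changed sides beyond counting error was not tested. The anchors named here and in the next paragraph were chosen for having the largest differences among the 672. Qrich2 had 13 of 18 partners on the lower side in liver mets and 7 of 20 in tumor, a difference of 37.2 percentage points (5.52 to 59.99). Dusp1, a phosphatase gene that restrains MAP kinases, had 8 of 22 and 1 of 20, a difference of 31.4 points (6.403 to 52.5). Within 200 kb, 11 of its 12 tumor partners were also found in liver mets. At 200 kb or more it had 8 partners in either line, of which 1 was in both. The promoters of Luc7l and Clcn7 on the lower side were found only in liver mets.

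In the opposite direction Actn3 with Zdhhc24 had 9 of 21 partners on the lower side in liver mets and 13 of 16 in tumor, a difference of -38.4 points (-60.4 to -6.57). Atf4, the transcription factor gene of the integrated stress response, had 16 of 27 and 18 of 20, a difference of -30.7 points (-50.6 to -4.91), and kept 4 partners. Plekha6 and Mrpl14 had differences of 31.9 and -31.6 points with intervals that left out 0. For Gtpbp1 with Josd1, Lrfn4 and Cdc42ep2 the differences were 31.7, -31.2 and -30.6 points and the intervals included 0.

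The FOXA1 lists served as a separate readout of the same anchors. At the 38 tumor-leaning anchors the median FOXA1 share ratio was 0.889, against 0.982 for all 1410 anchors, and 1 of the 38 had a FOXA1 ratio of 0.5 or less. Cbx8 had 34 FOXA1 liver mets loops and 37 tumor loops, and the distal anchor next to it had 20 in either line. Kcnh3 had 19 FOXA1 liver mets loops and 6 tumor loops, a FOXA1 share ratio of 2.62 (1.01 to 8.03), opposite to its HNF4G ratio. Gata2 also had more FOXA1 loops in liver mets, 15 against 5 (ratio 2.49, 0.859 to 8.75).

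HNF4G loops found in only 1 line were looked up in the FOXA1 lists of both lines. The FOXA1 liver mets list was the longer one, which by itself allows more loops to be found in it. Of the loops found only in HNF4G liver mets, 32.8% were in the FOXA1 liver mets list and 28.5% in the FOXA1 tumor list. Of those found only in HNF4G tumor, 29.99% and 25.6% were. Of the loops in both HNF4G lists, 69.2% and 64.5% were. Among loops between 200 and 500 kb, 23.2% of those only in HNF4G liver mets and 22.3% of those only in HNF4G tumor were in the FOXA1 liver mets list. Of the loops listed in exactly 1 FOXA1 list, 9083 of the HNF4G liver mets loops were in FOXA1 liver mets and 6830 in FOXA1 tumor, and 8392 and 6168 of the HNF4G tumor loops were. Within span ranges the odds ratio was 0.981 (0.938 to 1.03).

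Short motif strings were counted on both strands of the anchors, as a description of their sequence. The HNF4 string CAAAGTCCA occurred 0.0158 times per kb in the 38 tumor-leaning anchors (2 matches) and 0.0151 times per kb in all 1410. The forkhead string TGTTTAC occurred 0.0868 and 0.124 times per kb. The AP-1 string TGANTCA occurred 0.190 and 0.356 times per kb. The GC-rich core AGGGGGC of the CTCF motif occurred 0.576 and 0.302 times per kb. The forkhead and AP-1 strings were thus sparser and the GC-rich string denser in the tumor-leaning anchors, which had the higher GC content given above, and a match is not a bound site.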

How the data were processed

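The authors processed the Hi-ChIP reads with HiC-Pro 3.1.0 (default settings, mm10, DpnII fragments, duplicates removed) and called loops with hichipper. How the replicates of a group were joined, where anchors came from and the minimum of read pairs were not given in the sources used here. The deposited lists gave the anchors of each loop and a score without a name, between 0 and 20, which was used only to filter and rank loops within a list. A display score deposited beside it was 10 times the whole part of that score plus 1 in 100% of loops.

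Loops were matched by identical anchor pairs. Anchors within 2 kb of a start in GENCODE M21 were called promoter anchors. CpG, GC and motifs were read from GRCm38, in which all anchors lay inside the chromosomes. Ratios had exact (Clopper-Pearson) intervals, shares Wilson intervals, differences of shares Newcombe intervals, and odds ratios within 8 span ranges Robins-Breslow-Greenland intervals. No p-value was calculated, since each group had 1 list. Python 3.11.15, numpy 2.4.6, pandas 2.3.3 and scipy 1.17.1 were used, and the ratios were tested on simulated lists. The precision set by sequencing depth is unknown.

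Named anchors were the 10 promoter and 5 other anchors ranked highest in each direction by the interval bound nearest to 1, the 8 promoter anchors within 1.25-fold that kept the fewest partners, the 5 with the largest difference of side in each direction, and the 2 highest and 2 lowest members of each gene list. Some items that these rules select are not reported here. The members and lists were chosen with earlier results of these data known. The CpG and GC classes, the anchors that kept the most partners and the ranked genes were chosen after seeing the data.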

Additional observations from a re-analysis of the deposited data

Results flagged for a closer look

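Kcnh3 was the only named anchor or gene at which HNF4G and FOXA1 loops differed between the lines in opposite directions with both intervals leaving out 1. Its HNF4G share ratio was 0.244, from 8 liver mets loops and 32 tumor loops, and its FOXA1 share ratio was 2.62, with 19 and 6. The lower bound of the FOXA1 interval was 1.01. No test of this difference was possible with a single list for each factor and line.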

How the results depend on the processing

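No paired analysis was possible because each group had 1 joint list. Replicates could not be left out for the same reason. The anchors with the larger share in tumor numbered 38, and they numbered 2 with a score of 2 or more (span-matched 2), 340 with a minimum of 15 loops (span-matched 309), 3 with a minimum of 60 (span-matched 2) and 194 at a fold of 1.5. Matching on span and GC gave 19. Those with the larger share in liver mets, 1 in the report and 0 after span matching, numbered 0, 200, 0 and 38 at the same settings (span-matched 213 with a minimum of 15), 5 with equal numbers of highest-score loops or with raw loop numbers (span-matched 3 and 3), and 3 with loops of 20 kb or more (span-matched 3). They numbered 1 and 2 after matching on span with CpG or GC. Genes numbered 178 for liver mets and 390 for tumor, and 3 and 13 with a score of 2 or more, 687 and 1060 with a minimum of 10 loops, and 11 and 93 with a minimum of 40.

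A score of 2 or more keeps few loops and selects on span. With it the span ratio was 1.08 at 5 to 10 kb, and it reversed to 0.903 at 10 to 20 kb and 0.842 at 20 to 50 kb. In the ranges from 50 kb upward the ratios were 1.81, 1.09, 0.875, 0.808 and 0.689. The odds ratios were then 0.795 for promoter-promoter, 1.06 for promoter-distal and 1.29 for distal-distal loops and 0.603 for loops with 2 CpG-rich anchors, and the ratio of the densest CpG class was 0.706, against 0.885 at anchors below 30 loops in the full lists. Other definitions of a promoter moved promoter-distal loops to 0.974 (start inside the anchor), 1.03 (within 5 kb) and 0.971 (protein-coding only). Loops kept at 20 to 200 kb were 39.0% of liver mets and 41.8% of tumor loops, 68.9% and 71.2% with anchors widened by 5 kb, and 22.6% and 25.5% with a score of 2 or more. The median of partners kept was 43.8% at 20 to 200 kb and 46.7% with widened anchors. The FOXA1 percentages at a score of 2 or more were 44.6% and 41.7% for HNF4G liver mets loops and 39.8% and 34.7% for HNF4G tumor loops. Of 660 other values of named anchors and genes, 659 stayed within their interval. Many of these values could hardly move, so this count says little about stability. Raw loop numbers (129 values) scale every ratio by the same factor of 1.023. Equal numbers of highest-score loops (128) and lists without chromosome 11 (94) change most loop numbers little. With a score of 2 or more only 6 could be assessed, and 1, the gene ratio of Ahnak, moved from 0.963 to 1.62. Alternatives without chromosome 11, with CpG or GC matching, and at anchors below 30 loops, were chosen after seeing the data.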
